A study of Drosophila melanogaster with 8 samples.

Results

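A set of 10 genes of programmed cell death and the p53 response was followed in ovaries of Drosophila melanogaster: the death genes rpr, hid, skl and grim, the p53 gene and its targets Corp and Xrp1, the death inhibitor Diap1, and the caspases Dronc and Drice. They were chosen by name, with earlier results of these data known, so counts of them beside all genes describe these data only. The genes rpr (FBgn0011706), hid (FBgn0003997), skl (FBgn0036786), grim (FBgn0015946), Diap1 (FBgn0260635) and Dronc (FBgn0026404) lie on chromosome arm 3L, Xrp1 (FBgn0261113), p53 (FBgn0039044) and Drice (FBgn0019972) on 3R, and Corp (FBgn0030028) on the X. All 10 had a row among the 15682 genes of the count tables, and 9 passed the filter on low counts that left 10434 genes for testing, grim being the exception.

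The ovaries came from adults aged 4 to 6 days, in 4 groups of 2 libraries. The piwi mutant carried the alleles piwi1 and piwi2 (piwi1/piwi2) and was set against flies with the germline driver nos-GAL4-VP16 alone. In the RnpS1 knockdown (RnpS1 KD) the driver tj-GAL4, active in somatic cells of the ovary such as follicle cells, expressed a double-stranded RNA against RnpS1, and nos-GAL4-VP16 expressed a short hairpin RNA against it in the germline. Its control carried tj-GAL4 and nos-GAL4-VP16 without the RNAs. The piwi mutant labels name no driver, so that mutant and control differ by the driver as well as by the piwi alleles. The knockdown and its control share both drivers.

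The proteins of rpr, hid, skl and grim bind the inhibitor Diap1 and take it away from caspases. Freed of Diap1, the initiator caspase Dronc activates the effector caspase Drice, which cuts the proteins of the dying cell. In flies the transcription factor p53 raises rpr, hid and skl after radiation. Fly ovaries remove damaged germ cells in the germarium and defective egg chambers in mid-oogenesis by cell death, and nurse cells die as the egg matures.

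Gene counts summed to 37426999 to 86692865 per library. The targeted genes were lower where targeted: piwi had 202 and 193 CPM (counts per 1000000 gene counts) in the piwi mutant, against 316 and 312 CPM in its control, and RnpS1 had 8.75 and 3.78 CPM in the knockdown, against 45.0 and 39.6 CPM in its control. The knockdown also had less piwi, 189 and 156 CPM against 414 and 337 CPM in the ovaries with drivers alone (a log2 fold change of −1.24, adjusted p = 0.0149 in edgeR). This change was −1.38 to −1.10 with any library left out. In an edgeR fit of the 4 libraries of this comparison alone the adjusted p was 0.116. The 9 germline and 15 follicle cell markers that were matched had counts in every library. So had the 13 matched muscle markers, so the presence of counts cannot check the label of the tissue. Whole ovaries were used, so fewer cells of a type and less RNA per cell cannot be told apart.

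Per length, the death genes were the least abundant of the 10 genes in every group, and the inhibitor and the caspases were among the most abundant. In CPM per kb of exon, Diap1 averaged 76.7 in the piwi mutant, 67.6 in the piwi control, 88.0 in the RnpS1 knockdown and 79.9 in the RnpS1 control. Below Diap1 came Dronc and Drice, then p53 and Xrp1, then hid, rpr, skl and grim in that order in each group. Corp was the gene whose place moved most. It came first in the piwi mutant, at 79.7 CPM per kb, where its range overlapped that of Diap1, and below Diap1, Dronc and Drice in the piwi control, at 30.9 CPM per kb. In the RnpS1 knockdown Xrp1 stood above p53, at 24.2 against 16.1 CPM per kb, with ranges that did not overlap. In the other groups Xrp1 stood below p53, with overlapping ranges in the RnpS1 control only.

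**Figure D1:**
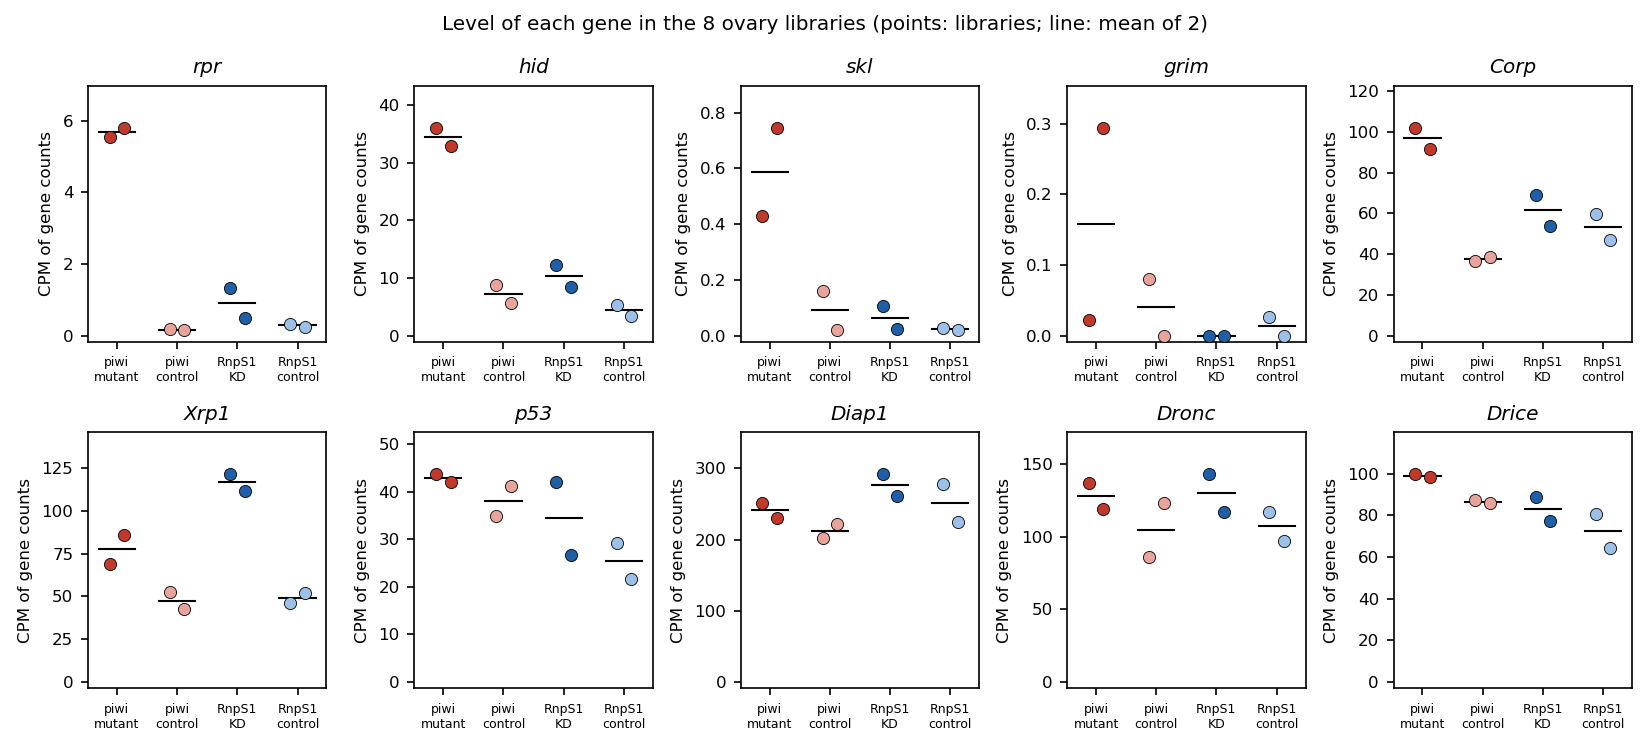
CPM of gene counts (vertical axes, from 0) of each gene in the piwi mutant, piwi control, RnpS1 KD and RnpS1 control. Points are libraries and lines are means of 2. The piwi mutant points of rpr, hid, skl, Corp and Drice lie above those of all other libraries, and the RnpS1 KD points of Xrp1 do so for that gene.

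In piwi mutant ovaries rpr, hid and Corp rose, and the inhibitor, the caspases and p53 itself did not pass the test. The rise was 30.1-fold for rpr, 4.31-fold for hid and 2.31-fold for Corp. Of the 9 genes tested 3 rose and none fell, where 6.37% of all genes tested rose, 5.06% fell and 11.4% passed in either direction. The median log2 fold change of the 9 genes was 0.55, and that of all genes tested 0.01. Because the genes were chosen with earlier results of these data known, these shares are a description and no test of the set.

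The gene rpr encodes a small protein that binds Diap1 and starts its destruction. It had 5.55 and 5.81 CPM in the piwi mutant libraries, against 0.187 and 0.148 CPM in their controls. These are 259 and 296 counts against 7 and 7. The mutant values lay far above every other library of the series, the next being 1.32 CPM in an RnpS1 knockdown library. The log2 fold change was 4.91 (SE 0.668, 95% interval 3.34 to 6.49, adjusted p = 0.0139 in edgeR's quasi-likelihood test). The ratio of summed counts was 34.4, with an exact 95% interval of 20.3 to 63.3 that covers counting error only.

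The gene hid, whose protein also binds Diap1 and is restrained by survival signals, was the most abundant death gene. It had 36.1 and 32.9 CPM in the mutant, against 8.71 and 5.62 CPM in the control. The groups did not overlap, and the other libraries reached 12.3 CPM at most. The log2 fold change was 2.11 (SE 0.344, interval 1.29 to 2.92, adjusted p = 0.0194).

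Corp encodes a protein that binds p53 and holds it down. It had 102 and 91.6 CPM in the mutant, against 36.5 and 38.7 CPM in the control, a log2 fold change of 1.21 (SE 0.160, interval 0.83 to 1.59, adjusted p = 0.0138). The piwi control was the lowest of the 4 groups for Corp. The RnpS1 control had 59.9 and 47.0 CPM of Corp, a log2 difference of 0.49 from the piwi control that did not pass (SE 0.159, adjusted p = 0.143), though DESeq2 called it (adjusted p = 0.0363).

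These 3 calls rested on having all 4 libraries of the comparison. When mutant replicate 1 was left out the adjusted p was 0.0697 for rpr, 0.0899 for hid and 0.0697 for Corp, and when mutant replicate 2 was left out it was 0.0626, 0.0871 and 0.0584. Leaving out control replicate 1 gave 0.0589, 0.0523 and 0.0566 for the same genes, and leaving out control replicate 2 gave 0.103, 0.116 and 0.0838. The log2 fold changes stayed between 4.75 and 5.11, between 1.83 and 2.48, and between 1.15 and 1.28. The number of genes called in the whole comparison, 1193, dropped to 51 when mutant replicate 1 was left out and to 86 for mutant replicate 2, and was 194 and 27 when control replicate 1 or 2 was left out.

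The remaining death genes were close to the limit of detection. The gene skl, a neighbour of rpr with a related product, had 0.428 and 0.746 CPM in the mutant, against 0.160 and 0.0211 CPM in the control. These are 20 and 38 counts against 6 and 1. Its log2 fold change of 2.56 did not pass (SE 1.05, interval 0.07 to 5.06, adjusted p = 0.145). For grim there were 1 and 15 counts in the mutant, against 3 and 0 in the control. The ratio was 4.63 with an exact interval of 1.32 to 24.8, and it came from mutant replicate 2 alone. In a later annotation (BDGP6) a long non-coding RNA, lncRNA:CR45975, overlaps exons of grim on the same strand. It has no row of its own in the tables, so reads of it may stand among those of grim.

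All 4 death genes lie on 3L, where grim, rpr and skl are neighbours and hid stands a few genes away. In that later annotation 9 genes of the tables lie in the stretch bounded by hid and skl, and the 5 others stand between hid and grim. Of these, CG7320, CG5103, CG13700, lncRNA:CR43306 and CheA75a, only CheA75a had enough counts to be tested. It had a log2 fold change of 0.53 in the mutant (SE 2.47, adjusted p = 0.904), too imprecise to say whether it moved with its neighbours.

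Xrp1, which encodes a transcription factor of the bZIP family induced by p53 after radiation and needed when cells with poor ribosomes are eliminated, had 69.0 and 85.9 CPM in the piwi mutant, against 52.4 and 42.6 CPM in the control. The groups did not overlap. The log2 fold change of 0.55 missed the threshold (SE 0.153, interval 0.19 to 0.91, adjusted p = 0.0612), and passed with library totals in place of trimmed means (0.0373) and in DESeq2 (0.0132). With the other settings of the edgeR fit it did not pass, and the adjusted p reached 0.0951. The log2 fold change was 0.37 to 0.73 with any library left out.

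Transcripts of p53 itself had 43.7 and 42.0 CPM in the mutant, against 34.9 and 41.2 CPM in the control. The log2 fold change was 0.01 (SE 0.236, interval −0.55 to 0.57, adjusted p = 0.979). In the later annotation an antisense RNA overlaps exons of p53, and another those of Diap1. The libraries were strand-specific and the count files are named as reverse counts.

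The inhibitor and the caspases differed little. Diap1 had 251 and 231 CPM in the mutant, against 203 and 222 CPM in the control (log2 fold change 0.02, interval −0.28 to 0.33). Dronc had 137 and 119 CPM against 85.9 and 123 CPM in the control (0.13, interval −0.32 to 0.58), and its groups overlapped. Drice had 99.8 and 98.2 CPM against 87.1 and 86.0 CPM in the control (0.03, interval −0.26 to 0.32). In plain CPM the mutant lay above the control without overlap for 8 of the 10 genes, among them p53, Diap1 and Drice, but so did 45.6% of all genes tested. The trimmed-mean (TMM) scaling used in the test lowers mutant values relative to control values.

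Counted against Diap1 within each library, the death genes stood several times higher in the piwi mutant. This ratio needs no scaling between libraries. Per kb of exon, rpr, hid, skl and grim together made up 19.3 and 20.9 for every 100 of Diap1 in the mutant, against 3.93 and 2.24 in its control. In the RnpS1 knockdown they made up 4.94 and 3.18, against 1.94 and 1.60 in its control. The make-up of the sum differed too. There were 0.685 and 0.788 of rpr for each of hid in the mutant, against 0.0958 and 0.117 in the control. Against p53, Corp stood at 4.11 and 3.83 per kb in the mutant, against 1.84 and 1.65 in its control, and at 2.89 and 3.55 in the knockdown, against 3.62 and 3.82 in its control. The mutant ratios lay above their own control, and those of the knockdown below theirs. The piwi control had the lowest ratios of all groups, and the mutant ratios were close to those of the RnpS1 control. The ratio of Dronc to Diap1 overlapped between mutant and control (0.850 and 0.806 against 0.660 and 0.867), and so did that of Drice to Diap1 (0.647 and 0.694 against 0.700 and 0.632).

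**Figure D2:**
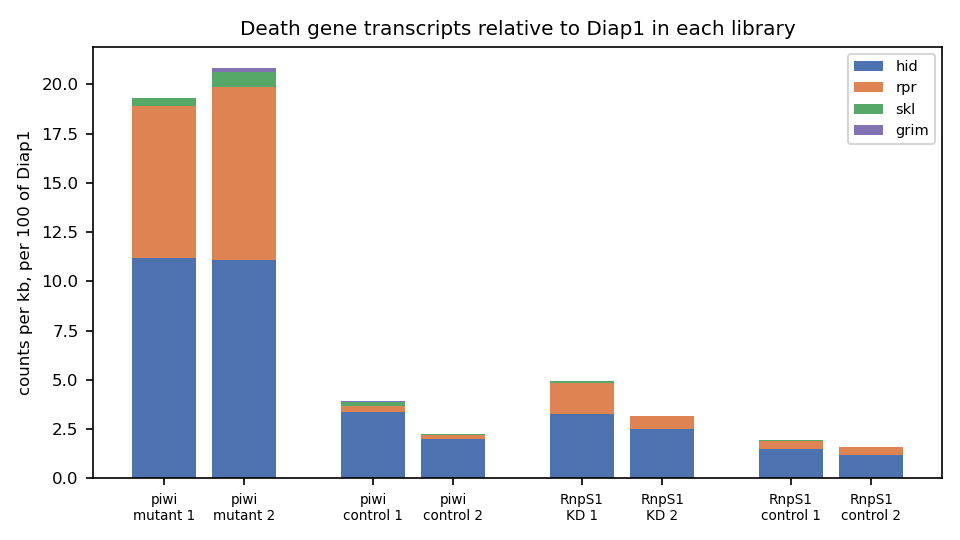
Counts per kb of exon of hid, rpr, skl and grim for every 100 of Diap1 (vertical axis, stacked from 0) in each library of the piwi mutant, piwi control, RnpS1 KD and RnpS1 control. The mutant bars reach 19.3 and 20.9, and rpr adds 7.70 and 8.78 of this, against 0.322 and 0.233 in the piwi control.

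In RnpS1 knockdown ovaries Xrp1 rose, and rpr, hid and Corp did not pass. It had 121 and 112 CPM in the knockdown, against 45.9 and 51.7 CPM in its control. These knockdown values were the highest of the series, and both controls of the study had similar levels. The log2 fold change was 1.14 (SE 0.153, interval 0.78 to 1.50, adjusted p = 0.0251), a rise of 2.20-fold. It was the 1 gene of 9 that passed, where 0.882% of all genes tested rose, 0.738% fell and 1.62% passed in either direction. The median of the 9 genes was 0.32, and that of all genes tested 0.01.

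The rise of Xrp1 kept its size, between 1.04 and 1.22 with any library left out, but its call did not always hold. The adjusted p was 0.104 and 0.0530 without knockdown replicate 1 or 2, and 0.139 and 0.0885 without RnpS1 control replicate 1 or 2. It was 0.102 in a fit of the 4 libraries of this comparison alone, in which 5 genes passed in place of 169.

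The death genes had positive values in the knockdown that did not pass. For rpr there were 1.32 and 0.484 CPM in the knockdown, against 0.320 and 0.248 CPM in the control (log2 fold change 1.53, SE 0.579, interval 0.16 to 2.90, adjusted p = 0.234). The value rested mostly on knockdown replicate 1, without which it was 0.66. For hid there were 12.3 and 8.37 CPM in the knockdown, against 5.33 and 3.42 CPM in the control. The groups did not overlap, and the log2 fold change of 1.12 had an interval of 0.32 to 1.91 (adjusted p = 0.154), with a call in DESeq2 (adjusted p = 0.0127).

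Few reads came from skl and grim in this comparison. There were 10 counts of skl over the knockdown libraries and 3 over the controls, a ratio of 2.53 with an exact interval of 0.652 to 14.3. There were 0 counts of grim in the knockdown and 2 in the control, so no fold change is given. The log2 fold change of skl, 1.21 (SE 1.21, adjusted p = 0.660), was −0.15 without knockdown replicate 1. A count of 0 allows up to 0.0395 and 0.0346 CPM in the knockdown libraries.

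Corp stood at 69.2 and 53.8 CPM in the knockdown, against 59.9 and 47.0 CPM in the control, with overlapping groups (log2 fold change 0.09, interval −0.29 to 0.46). The gene p53 had 42.1 and 26.7 CPM in the knockdown, against 29.1 and 21.6 CPM in the control, also overlapping (0.32, interval −0.24 to 0.88). Diap1 (0.02, interval −0.28 to 0.33), Dronc (0.16, interval −0.29 to 0.61) and Drice (0.08, interval −0.21 to 0.37) overlapped between the groups as well. In plain CPM 3 of the 10 genes, rpr, hid and Xrp1, lay above the control without overlap, as did 34.2% of all genes tested.

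**Figure D3:**
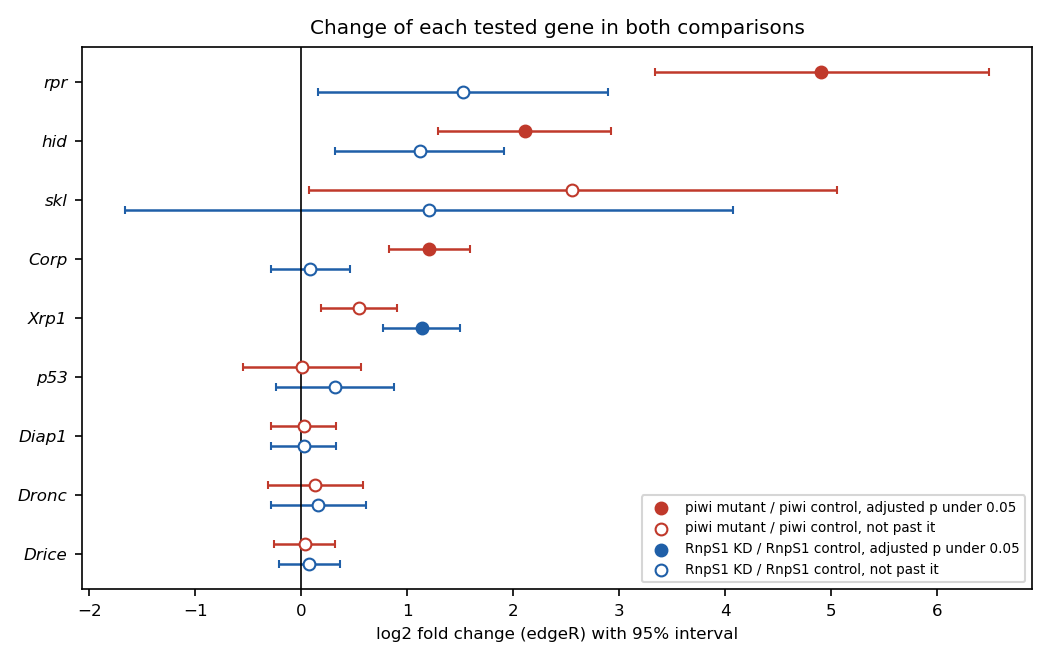
Log2 fold change with its 95% interval (horizontal axis) of each tested gene in the piwi mutant against its control and in the RnpS1 KD against its control. Filled points have an adjusted p under 0.05, and these are rpr, hid and Corp in the piwi mutant and Xrp1 in the RnpS1 KD.

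A gene called in 1 comparison only is not thereby shown to differ between them, so the difference between both changes was tested directly. The comparisons share no library. None of the 9 genes passed in edgeR (0, against 3 at an unadjusted p under 0.05 and 2 in DESeq2), where 0.652% of all genes did (0.288% higher and 0.364% lower). The change of rpr in the knockdown was lower than that in the mutant by 3.38 on the log2 scale, with an SE of 0.841 (interval −5.37 to −1.39, adjusted p = 0.139, DESeq2 0.00988). For Corp the difference was −1.12 (SE 0.224, interval −1.65 to −0.59, adjusted p = 0.0915, DESeq2 0.00019). For Xrp1 it was 0.59 in the other direction (SE 0.215, interval 0.08 to 1.10, adjusted p = 0.263). For hid it was −0.99, with an interval of −2.10 to 0.12 (adjusted p = 0.378). The intervals of Diap1 (−0.43 to 0.43), Dronc (−0.61 to 0.67) and Drice (−0.37 to 0.45) lay around 0.

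Between the RnpS1 control and the piwi control none of 9 passed in edgeR (0, against 2 at an unadjusted p under 0.05 and 1 in DESeq2), where 3.85% of all genes did (1.71% higher and 2.15% lower). Besides Corp, p53 was the gene with an unadjusted p under 0.05, at 29.1 and 21.6 CPM in the RnpS1 control and 34.9 and 41.2 CPM in the piwi control (log2 difference −0.61, SE 0.237, adjusted p = 0.204).

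By their pattern over the 8 libraries, the genes most like rpr were CG5397 (Pearson r = 0.995 of log2 CPM with a pseudocount of 0.5), NijA (0.992) and CG8046 (0.990). NijA encodes a ninjurin, a membrane protein of stressed and damaged tissue, and had 7.41 and 9.15 CPM in the piwi mutant against 0.748 and 0.571 CPM in its control. The genes most like hid were por (0.989), which encodes the acyltransferase that modifies Wnt proteins, CG11951 (0.987) and Jheh3 (0.982), a juvenile hormone epoxide hydrolase gene. Within the set, rpr had r = 0.946 with hid, 0.933 with Corp and 0.471 with Xrp1. The 8 points share 4 genotypes and their depth, and these values describe them only.

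The genes around this core are given by list, chosen by role. The lists too were chosen with earlier results of these data known, so their shares beside all genes are a description only. Among the apoptosome gene Dark and the other caspases, none of 5 passed in the piwi mutant (0 in edgeR, against 2 at an unadjusted p under 0.05 and 1 in DESeq2). The lowest unadjusted p was that of the caspase gene Strica, with 9.15 and 8.70 CPM in the mutant against 12.1 and 11.4 CPM in the control (log2 fold change −0.56, adjusted p = 0.0987). None passed in the knockdown either (0, against 1 and 1). Among other inhibitor genes of the Diap1 family, Bcl-2 family genes and their regulators, none of 9 passed in the mutant (0, against 1 at an unadjusted p under 0.05 and 0 in DESeq2) or the knockdown (0, against 1 and 1). The first of these by p was AIF, a mitochondrial death factor gene, at −0.28 in the mutant (adjusted p = 0.122).

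Among the apoptotic nucleases and their regulators, 1 of 4 tested passed in the piwi mutant, where 11.4% of all genes did. Drep1, which encodes a relative of the mammalian inhibitor of the caspase-activated DNase, had 95.3 and 87.4 CPM in the mutant, against 6.49 and 12.3 CPM in the control (log2 fold change 3.12, SE 0.281, adjusted p = 0.00614). The RnpS1 control had 218 and 175 CPM of it, a log2 difference of 4.37 from the piwi control (SE 0.296, adjusted p = 0.00424). Both RnpS1 groups stood above the mutant, and the piwi control below it, so that a rise with the mutation and a piwi control genotype with little Drep1 cannot be told apart. In the knockdown none of 4 passed (0, against 0 and 0).

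None of the genes that carry DNA damage signals to p53 rose in either comparison. In the piwi mutant 6 were tested, their median was −0.21 and none passed (0, against 1 at an unadjusted p under 0.05 and 1 in DESeq2). In the knockdown, where 0.738% of all genes fell, 1 of 6 did, tefu, the fly ATM kinase gene, with 97.3 and 90.6 CPM against 180 and 152 CPM in the control (log2 fold change −0.94, SE 0.113, adjusted p = 0.0188). Without knockdown replicate 1 or 2, or RnpS1 control replicate 1, the adjusted p of tefu was 0.0818, 0.0518 and 0.0890, and in a fit of the 4 libraries alone 0.117.

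Of 8 other genes induced by radiation in flies, 1 fell in the piwi mutant and none rose, a share near the 11.4% of all genes called there. In the knockdown 1 fell and none rose, where 1.62% of all genes were called. The gene was RnrL, the large subunit of ribonucleotide reductase, in both. It had 371 and 347 CPM in the mutant, against 434 and 526 CPM in the control (log2 fold change −0.58, SE 0.145, adjusted p = 0.0476). In the knockdown it had 302 and 258 CPM, against 511 and 422 CPM in the control (−0.85, SE 0.145, adjusted p = 0.0454). Both values lay just past the threshold. With 1 library left out the adjusted p of the mutant value was 0.0498 to 0.237, past the threshold only without RnpS1 knockdown replicate 2, and that of the knockdown value was 0.0551 to 0.159. With library totals the values were −0.42 (0.116) and −0.74 (0.0695).

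Of 7 genes of the Xrp1 partner Irbp18 and of stress responses linked to Xrp1, 2 fell in the piwi mutant and none rose, where 5.06% of all genes fell. They were PEK, a kinase that slows translation under stress of the endoplasmic reticulum (log2 fold change −0.54, SE 0.0985, adjusted p = 0.0229), and crc, the fly ATF4 factor downstream of it (−0.45, SE 0.107, adjusted p = 0.0430). PEK had 235 and 231 CPM in the mutant, against 286 and 321 CPM in the control. Among the 7 genes 4 had an unadjusted p under 0.05, 1 of them higher, and DESeq2 called 1 higher and 3 lower. The adjusted p of PEK was 0.124 and 0.147 without mutant replicate 1 or 2, 0.0613 and 0.144 without control replicate 1 or 2, and 0.0546 with library totals. That of crc was above the threshold in 7 of 8 fits that left out a library, reaching 0.217, and 0.121 with library totals. In the knockdown, where Xrp1 itself rose, none of the 7 passed (0, against 2 at an unadjusted p under 0.05 and 0 in DESeq2), with a median of 0.37.

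Genes of the JNK pathway, a stress kinase cascade that in flies can both cause and follow cell death, rose in part in the piwi mutant: of 11 genes 3 rose and none fell, where 6.37% of all genes rose and 5.06% fell. The median of the 11 was 0.80. At an unadjusted p under 0.05 there were 8, of which 7 were higher, and DESeq2 called 3 higher and 1 lower. Mmp1, a matrix metalloprotease gene, had 15.2 and 15.3 CPM in the mutant, against 3.47 and 1.95 CPM in the control (log2 fold change 2.33, SE 0.364, adjusted p = 0.0169). The kinase gene bsk, the fly JNK, had 62.1 and 51.1 CPM against 23.4 and 20.4 CPM in the control (1.21, SE 0.208, adjusted p = 0.0207). The phosphatase gene puc, a target and brake of the pathway, had 95.9 and 96.3 CPM against 49.9 and 51.7 CPM in the control (0.76, SE 0.104, adjusted p = 0.0139).

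The JNK changes kept their size with any library left out, at 1.97 to 2.83 for Mmp1, 1.08 to 1.34 for bsk and 0.75 to 0.79 for puc, but their calls were lost in part. Without mutant replicate 1 or 2, the adjusted p was 0.0804 and 0.0855 for Mmp1, 0.103 and 0.0759 for bsk, and 0.0716 and 0.0813 for puc. Without control replicate 2 it was 0.0959, 0.132 and 0.0838, and without control replicate 1 it was 0.0650 for bsk and 0.0560 for puc. In the knockdown none of 11 passed (0, against 2 at an unadjusted p under 0.05 and 1 in DESeq2). Mmp1 had 12.5 and 9.10 CPM in the knockdown, against 3.62 and 3.43 CPM in the control (1.50, SE 0.353, adjusted p = 0.0904, DESeq2 0.000319).

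No gene of corpse clearance passed in edgeR's fit of all 8 libraries with TMM factors. Of 7 engulfment genes none passed in the mutant (0, against 3 at an unadjusted p under 0.05, 2 of them higher). DESeq2 called 2 higher and 1 lower. None passed in the knockdown (0, against 1 at an unadjusted p under 0.05 and 0 in DESeq2). The largest change in the mutant was that of NimC4, with 7.73 and 6.01 CPM against 0.374 and 0.169 CPM in the control. Its log2 fold change of 4.50 did not pass (SE 1.42, adjusted p = 0.0808 in edgeR). The first by p was drpr, the engulfment receptor of follicle cells and glia, with 170 and 180 CPM in the mutant against 122 and 123 CPM in the control (log2 fold change 0.36, SE 0.0920, adjusted p = 0.0509). It passed with library totals (0.0260), RLE factors (0.0412), the 4 libraries alone (0.0401) and DESeq2 (0.00226). It did not pass without the filter or with a replicate block, where the adjusted p reached 0.0816. With any library left out the log2 fold change of drpr was 0.31 to 0.42. Of 8 autophagy genes none passed in the mutant (0, against 1 and 0) or the knockdown (0, against 0 and 0), and the first by p was Atg17, an autophagy scaffold gene, at −0.25 (adjusted p = 0.150).

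**Figure D4:**
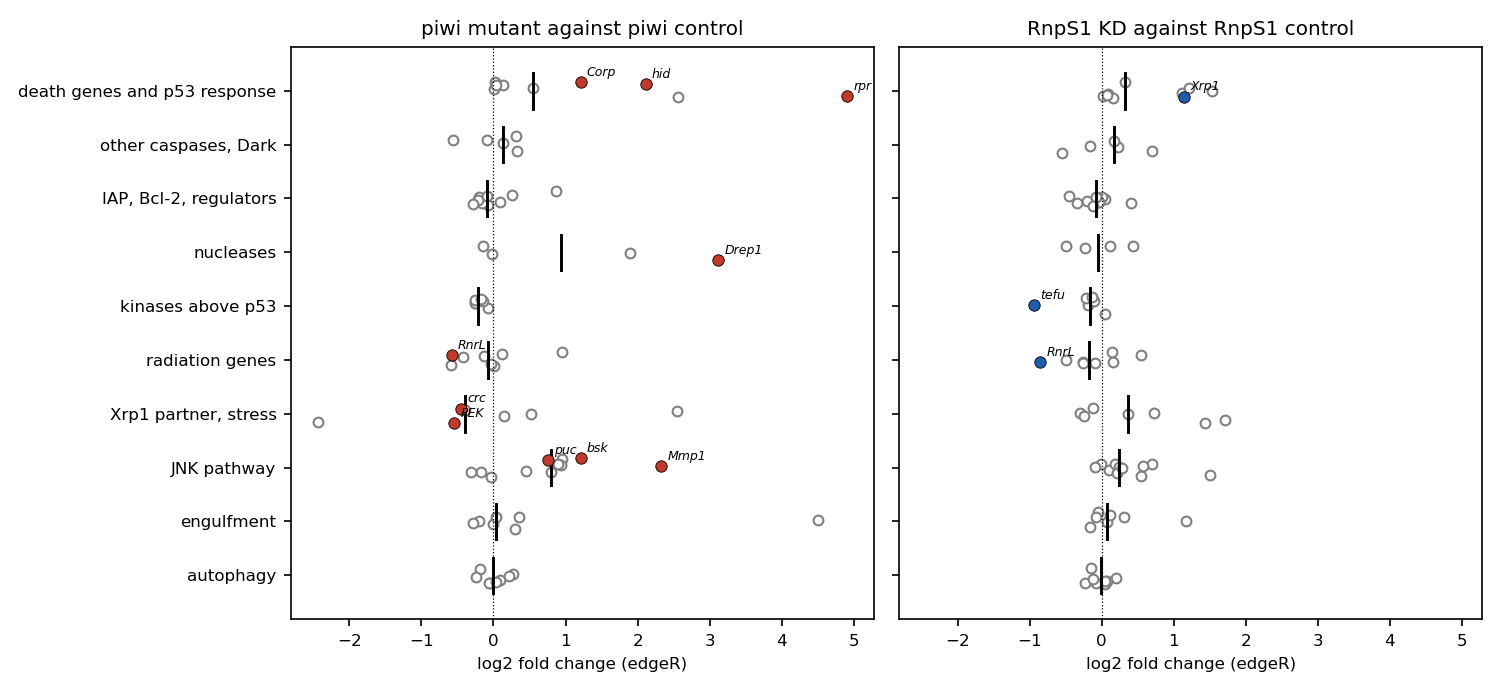
Log2 fold change (horizontal axes) of every tested gene of the 10 genes and of each list around them, for the piwi mutant and the RnpS1 KD, each against its control. Filled, named points have an adjusted p under 0.05 and black bars are list medians. In the piwi mutant the called rises lie among the death genes, the nucleases and the JNK pathway, and the called falls among the radiation and stress genes.

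Some markers of haemocytes and fat body rose in the piwi mutant, where 6.37% of all genes did. Of 8 haemocyte (blood cell) markers 4 rose, and their summed level was 477 and 826 CPM in the mutant, against 130 and 67.5 CPM in the control, in which the marker He was at 0. Of 13 muscle markers 1 passed as higher in edgeR, a share near that of all genes (2071 and 3460 CPM summed, against 950 and 593 CPM in the control). All 13 had positive log2 fold changes, with a median of 2.63, and 8 had an unadjusted p under 0.05. DESeq2 called 4 of them higher. Of 7 fat body markers 3 rose (378 and 1083 CPM summed, against 95.1 and 84.9 CPM in the control). The follicle markers summed to 2960 and 4306 CPM in the mutant, against 13910 and 10790 CPM in the control, and none of 15 passed (0, against 7 at an unadjusted p under 0.05, and 1 higher and 5 lower in DESeq2).

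The germline markers summed to 3339 and 3630 CPM in the mutant, against 4440 and 4154 CPM in the control. Of these 9 markers 1 rose and 3 fell, where 6.37% of all genes tested rose and 5.06% fell. The markers thus did not all move with their sum. Gut markers summed to 0.835 and 36.6 CPM in the mutant, against 0.962 and 1.14 CPM in the control, with none of 9 passing (0, against 0 at an unadjusted p under 0.05 and 1 in DESeq2). Testis markers summed to 7.86 and 10.8 CPM in the mutant, against 2.59 and 2.83 CPM in the control. Of 4 tested 2 rose, where 6.37% of all genes did.

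Between the mutant libraries the fat body, muscle and haemocyte sums differed more than rpr, hid and Corp did. Fat body, muscle and haemocyte markers were all higher in mutant replicate 2 than in replicate 1, whereas hid and Corp were lower in replicate 2 and rpr was close to equal in both. The part of these tissues in the levels of rpr, hid, Corp and the JNK genes was not tested.

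In the knockdown comparison the marker sums differed between libraries of 1 group. The follicle markers summed to 4230 and 14850 CPM in the knockdown, against 12220 and 22320 CPM in the control, and none of 15 passed (0, against 1 at an unadjusted p under 0.05 and 1 in DESeq2). Knockdown replicate 1, with the lower sum, was also the library with more rpr, hid, skl, Corp and p53. The same library had more Diap1 (292 against 261 CPM), Dronc (143 against 117 CPM) and Drice (88.9 against 77.2 CPM), so this was not particular to the death genes. Whether the follicle sum bears on the levels of these genes was not tested. Muscle markers, at 730 and 1419 CPM in the knockdown against 601 and 1438 CPM in the control, and haemocyte markers, at 60.9 and 147 CPM against 50.4 and 162 CPM in the control, overlapped between the groups. Fat body markers, at 166 and 156 CPM in the knockdown against 164 and 171 CPM in the control, and gut markers, at 67.7 and 74.1 CPM against 198 and 0.495 CPM in the control, overlapped too. Testis markers did not overlap, at 6.42 and 7.51 CPM in the knockdown against 2.17 and 4.50 CPM in the control. None of 4 tested passed (0 in edgeR, against 2 at an unadjusted p under 0.05 and 1 in DESeq2). Xrp1 stood at similar levels in both knockdown libraries, and it too was higher in replicate 1 (121 against 112 CPM).

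**Figure D5:**
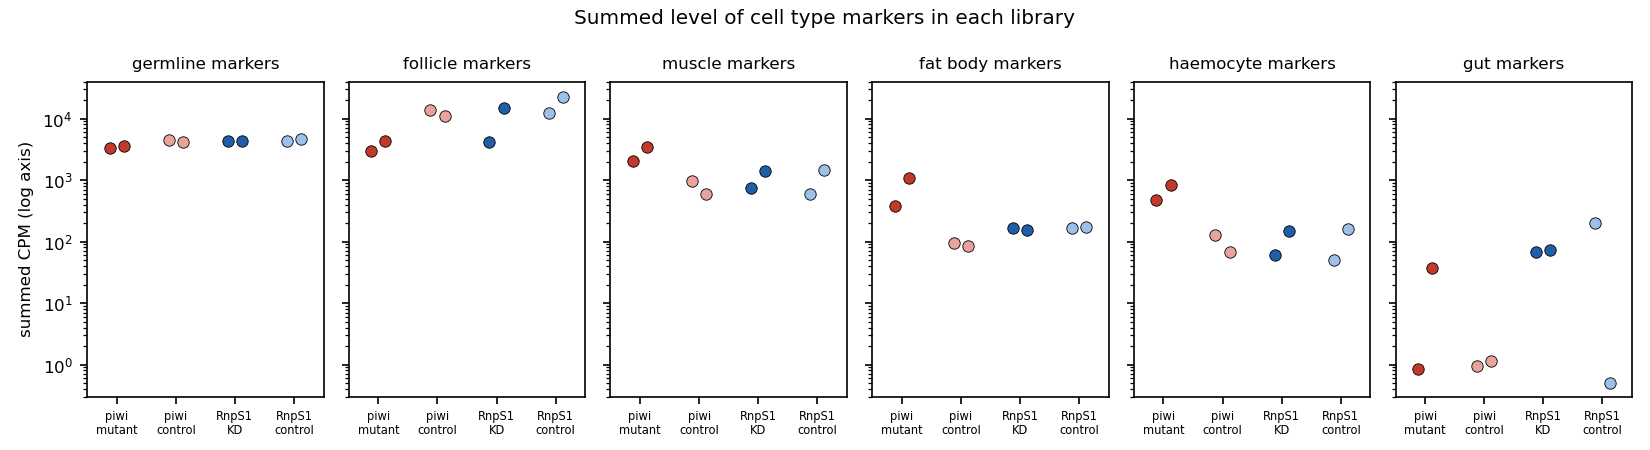
Summed CPM (vertical axis, logarithmic and shared) of germline, follicle, muscle, fat body, haemocyte and gut markers in each library of the piwi mutant, piwi control, RnpS1 KD and RnpS1 control. Muscle, fat body and haemocyte sums are highest in the mutant libraries, and the follicle sum is low in both mutant libraries and in RnpS1 KD replicate 1.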

How the data were processed

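RNA of whole ovaries was measured in 8 libraries. Per the labels' protocols, total RNA was depleted of ribosomal RNA and strand-specific libraries were sequenced. The authors deposited raw read counts per gene for each library, not normalized and not pooled. Per the submitters' processing notes, the builds were dm3 and BDGP5 and the tools included TopHat2 2.0.9 and HTSeq 0.5.3p9, with DESeq. Reads in no gene (1.91% to 10.7% of the sum of gene, no-gene and ambiguous reads) and ambiguous ones (1.19% to 1.63%) stayed out of library sizes and tests. Alignments that were not unique stayed out too, at 43.2% to 66.0% once added to that sum. They made up 66.0% and 64.6% in the piwi mutant and 51.4% and 43.2% in its control. In the knockdown they made up 65.6% and 50.3%, and in its control 44.9% and 65.3%. The deposited counts of transposons were not used here. Symbols (15002 of 15682 identifiers), chromosome and exon lengths came from BDGP6, a later build, so no coordinates are given, and no sequences are shown. CPM are counts per 1000000 gene counts of the library.

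The quasi-likelihood test of edgeR 4.0.16 in R 4.3.3 was run on all 8 libraries with a term per group, TMM factors and filterByExpr, with Benjamini-Hochberg adjustment over 10434 genes and a threshold of 0.05. SEs and 95% intervals came from the F statistic. The fit had 4 residual degrees of freedom. DESeq2 1.42.0, other scalings, no filter, a replicate block, the 4 libraries alone and leaving out each library were alternatives. The test was also run on counts simulated with the spread that edgeR estimated from these data. Such a run cannot check that estimate of the spread, and nothing here rests on it. The labels do not say that libraries came from separate animals, so p-values measure the spread between libraries, which may be technical. Exact tests of 2 against 2 were not used.

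The 10 genes, the lists and the tests were chosen with earlier results of these data known. Named genes were all 10, in each list those that passed (at most 5) or else the 1 with the lowest unadjusted p in the mutant, and the 3 most correlated with rpr and with hid. NimC4 was named as well, for the size of its change. Of the listed genes 6 had no row that matched and were not analysed here.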

Additional observations from a re-analysis of the deposited data

Results flagged for a closer look

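The change of Drep1 differed between the comparisons. The RnpS1 knockdown change minus the piwi mutant change was −3.62 on the log2 scale (SE 0.376, adjusted p = 0.0156 in edgeR's quasi-likelihood test). Drep1 was lower in 2 of 2 knockdown libraries than in both of their controls, and higher in 2 of 2 mutant libraries than in both of theirs. With a library left out, the adjusted p was above the threshold without piwi mutant replicate 1 (0.0587) and without RnpS1 knockdown replicate 1 (0.0539) or 2 (0.0535). The level was low in the piwi control alone.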

How the results depend on the processing

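With library totals in place of trimmed means the median log2 fold change of all genes was 0.17 in the piwi mutant and 0.12 in the RnpS1 knockdown, against 0.01 in both, and higher genes made up 80.3% and 72.9% of those called, against 55.7% and 54.4%. Leaving out a library gave 27 to 1138 genes called for the piwi mutant (1193 with all), 0 to 139 for the knockdown (169), 12 to 41 for the difference (68) and 44 to 355 between controls (402). Of the 10 genes it gave 0 to 3 calls for the mutant (3; 0 without any of its own 4 libraries) and 0 to 1 for the knockdown (1).

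DESeq2 called 2470, 1005, 787 and 1418 genes in these comparisons, and 2 of the 10 genes in the knockdown, 2 in the difference and 1 between controls. No filter gave 254 genes for the knockdown and 120 for the difference. The 4 libraries alone gave 5 genes and 0 of the 10 in the knockdown and 135 genes between controls; the difference could not be fitted on 4. Replicate numbers are not shown to pair samples: the correlation across genes of the gap between replicates 1 and 2 was −0.25 for mutant and control and 0.30 for knockdown and control. With a replicate block 659 genes passed for the mutant, 64 for the knockdown and 211 between controls, and 0 of the 10 in the knockdown, where Xrp1 had an adjusted p of 0.0542. Scaled by TMM, mean CPM moved by more than the SD for rpr (5.37), p53 (40.5) and Drice (93.6) in the mutant and Corp (39.7) and Drice (91.4) in the piwi control. TMM scales all genes of a library by the same factor, and the SD is that of 2 libraries. Why the factors differ between libraries was not tested.

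No single-gene value that passed reversed. Among alternatives for single genes 82 lost a call, 23 gained one and 1157 did neither. The 1157 include values that had no call to lose, so these counts do not give the share of calls that were lost. With 2 libraries a group, counts of rpr, skl and grim limit the death genes.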
